A study of Mus musculus with 2 samples.

Results

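Mir214, Mir199b, Mir199a-2 and Mir199a-1 are microRNA genes that lie antisense inside dynamin genes, and they are described here in the embryonic mouse liver. The members were chosen by name: every counted gene whose Ensembl identifier carries a Mir199 or Mir214 symbol in the GENCODE annotation, which gave 4 of 1973 counted genes. Small RNA of under 30 nucleotides was sequenced from livers of healthy B6NCrl embryos at 11.5 days, untreated and with no altered allele named in the labels. Each of 2 libraries, labelled biological replicates 1 and 2, was made from pooled male and female embryos, 109 of them for replicate 1, with no number given for replicate 2. Both libraries form 1 group, so the data hold levels and the spread between pools, and no comparison of conditions. Replicate 1 held 3344673 reads assigned to microRNA genes on their own strand and replicate 2 held 1584499.

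A microRNA gene is transcribed as a long primary RNA, from which Drosha cuts a hairpin precursor and Dicer cuts a duplex of a 5p and a 3p arm. An arm loaded into an Argonaute protein represses messenger RNAs that pair with its seed, the bases 2 to 8 from its 5′ end. Mir199a-2 and Mir214 come from one noncoding RNA, Dnm3os, which Twist1 activates and which mice need for normal skeletal growth. Both families are known from mesenchyme and fibroblasts, and in the adult liver miR-214 and miR-199a are studied in hepatic stellate cells and fibrosis. Among known targets are Ezh2 for miR-214 and Mtor and Met for miR-199a-3p.

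The mature arms are shown first because they decide which reads can be given to 1 gene. They were taken from RefSeq (build GRCm38.p6), which held a precursor for 4 of 4 members, the same sequences as the GENCODE M21 precursors. The seed is in capitals.
miR-214-5p: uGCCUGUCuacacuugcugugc
miR-214-3p: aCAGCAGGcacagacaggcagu
miR-199a-5p: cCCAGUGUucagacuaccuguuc
miR-199a-3p: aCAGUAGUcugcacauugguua
miR-199b-3p: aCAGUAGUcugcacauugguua

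The arms fall into 4 seeds. The 3p arms of all 3 Mir199 genes are the same 22 bases. The 23 bases of miR-199a-5p occur in the precursors of both Mir199a-1 and Mir199a-2. Each arm of Mir214 occurs in 1 of the 1005 RefSeq precursors searched, its own. Of the 4 seeds, 1 was found in another mature sequence of the table: miR-761 (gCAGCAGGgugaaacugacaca) carries the miR-214-3p seed. Its gene Mir761 had 0 counts in both libraries, which allows up to 0.897 CPM (counts per 1000000 assigned counts) in replicate 1 and 1.89 CPM in replicate 2, from 3 counts as the limit of a count of 0.

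The whole precursors show where the copies part, with the annotated mature arms in capitals.
Mir214: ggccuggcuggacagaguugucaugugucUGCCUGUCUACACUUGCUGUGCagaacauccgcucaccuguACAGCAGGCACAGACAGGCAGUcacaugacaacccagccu
Mir199b: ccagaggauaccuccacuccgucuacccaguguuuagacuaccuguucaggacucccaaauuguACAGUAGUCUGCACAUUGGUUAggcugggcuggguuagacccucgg
Mir199a-2: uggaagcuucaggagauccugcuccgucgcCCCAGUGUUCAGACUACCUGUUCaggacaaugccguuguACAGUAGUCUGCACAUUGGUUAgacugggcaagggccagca
Mir199a-1: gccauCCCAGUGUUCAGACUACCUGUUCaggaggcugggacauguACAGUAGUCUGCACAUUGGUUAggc

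The RefSeq table lists the 3p arm alone for Mir199b. The stretch of its precursor that best matches miR-199a-5p, at precursor positions 26 to 48, differs from it by the single substitution C10U (miR-199a-5p base first, position counted from 1 at its 5′ end, then the Mir199b base). That base lies outside the seed.
Mir199b stretch: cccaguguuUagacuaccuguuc

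Identity between copies reaches past the arms. Mir199a-1 and Mir199a-2 share a run of 27 bases that opens with the first base of miR-199a-5p and goes 4 bases beyond its end, so the base directly before this arm already differs. Mir199b and Mir199a-1 share 28 bases around the 3p arm, 3 before it and 3 after it. This run ends at base 70 of Mir199a-1, the last of its precursor, so whether the match goes further was not measured. The run shared by Mir199b and Mir199a-2 is 27 bases, 4 before the arm and 1 after it. The longest run Mir214 shares with any of the 3 Mir199 precursors is 7 bases.

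Reads that match several places form a class of their own in the deposited files and are counted at no gene. With windows of 20 bases over all 1894 counted genes that have a precursor sequence, 91 of 91 windows of Mir214 were in its precursor alone. The numbers were 81 of 91 for Mir199b, 75 of 91 for Mir199a-2 and 34 of 51 for Mir199a-1. Inside the annotated arms the split was complete: 6 of 6 windows of Mir214 were found nowhere else, against 0 of 3 for Mir199b, 0 of 7 for Mir199a-2 and 0 of 7 for Mir199a-1. In the Mir199b stretch that carries C10U, 4 of 4 windows were its own. By sequence, 20 bases from either arm name Mir214 and 20 bases from the 5p side name Mir199b, whereas 20 bases inside an annotated arm of Mir199a-1 or Mir199a-2 name neither gene. How the reads were spread along each precursor was not measured. The search covered counted precursors and not the rest of the genome.

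**Figure D1:**
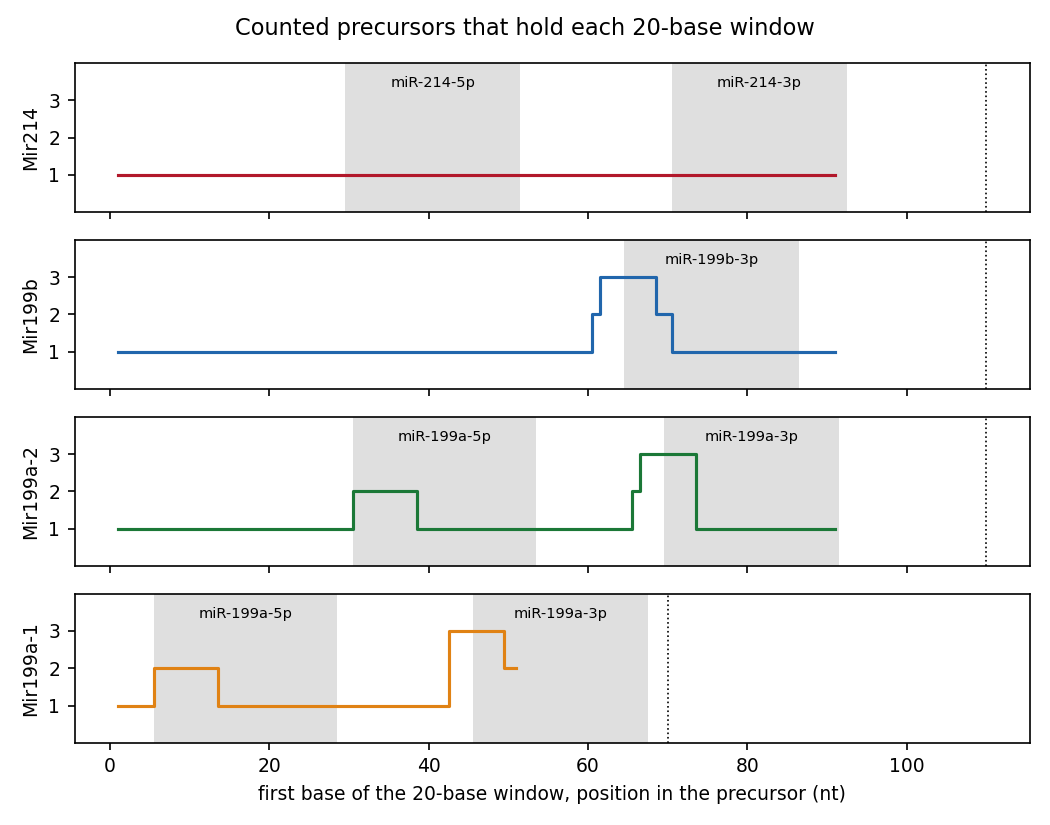
Number of counted precursors (vertical axis, 1 panel per gene) that hold each 20-base window, by the position of its first base in the precursor (horizontal axis, nucleotides); grey bands are the annotated mature arms and the dotted line is the end of the precursor. The line stays at 1 for Mir214 and rises to 3 at the 3p arm of each Mir199 gene and to 2 at the 5p arm of Mir199a-1 and Mir199a-2.

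All 4 genes lie in introns of a dynamin gene, on the opposite strand, in mm10 coordinates of GENCODE M21. Mir199a-2 (ENSMUSG00000070126.1), chromosome 1 at 162217814 to 162217923 on the plus strand, and Mir214 (ENSMUSG00000065516.1), at 162223368 to 162223477, lie in an intron of Dnm3 and in an exon of Dnm3os, which has the same strand as both. Mir199a-2 begins 191 bases inside Dnm3os, and 5444 bases separate it from Mir214. Mir199b (ENSMUSG00000092807.1) lies on chromosome 2 at 32318460 to 32318569 on the plus strand, in an intron of Dnm1. Mir199a-1 (ENSMUSG00000065547.1) lies on chromosome 9 at 21496495 to 21496564 on the minus strand, in an intron of Dnm2. M21 has no same-strand host over Mir199b or Mir199a-1. The dynamins are GTPases that cut vesicles from membranes, and their own messenger RNA is not measured in this assay.

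Mir214 was by far the most counted of the 4. It had 33148 counts in replicate 1 and 13915 in replicate 2, which is 9911 CPM (95% exact Poisson interval 9804 to 10018, counting error only) and 8782 CPM (8637 to 8929). The level in replicate 2 was the lower one, and the counting intervals do not overlap. The mean was 9346 ± 798 CPM (SD, n = 2), and Mir214 ranked 26 and 33 among all counted genes in replicates 1 and 2.

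Mir199b, whose 5p side can be told from the other copies, came next. Its 1861 and 655 counts gave 556 CPM (531 to 582) in replicate 1 and 413 CPM (382 to 446) in replicate 2. The mean of 485 ± 101 CPM (SD, n = 2) again has replicate 2 as the lower library, with ranks of 139 and 149.

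Mir199a-2 shares its primary RNA with Mir214 and had far fewer counts. There were 369 and 128 counts, or 110 CPM (99.4 to 122) and 80.8 CPM (67.4 to 96.1), with a mean of 95.6 ± 20.9 CPM (SD, n = 2). Mir199a-1, the copy inside Dnm2, had 29 and 14 counts, or 8.67 CPM (5.81 to 12.5) and 8.84 CPM (4.83 to 14.8). Its mean was 8.75 ± 0.117 CPM (SD, n = 2). The SD of Mir199a-1 is smaller than its counting intervals, so 2 libraries do not measure its spread.

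**Figure D2:**
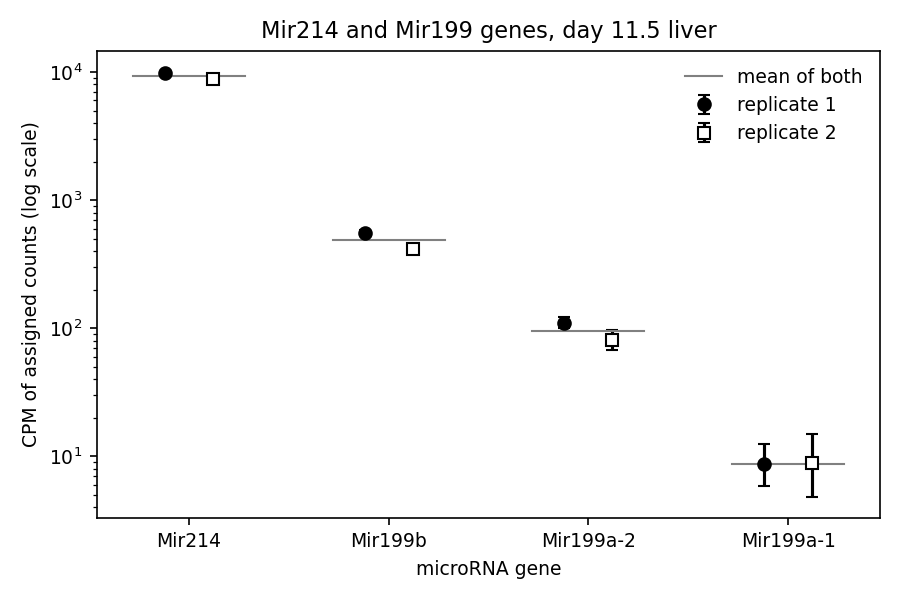
Level of each gene in CPM of assigned counts (log axis), with filled circles for replicate 1, open squares for replicate 2, bars for 95% exact Poisson intervals (counting error only) and grey lines for the mean. The reads placed at each gene form 4 separate steps, from 9346 CPM for Mir214 down to 8.75 CPM for Mir199a-1, and no step overlaps the next. Reads that match several places are not counted here.

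The order Mir214, Mir199b, Mir199a-2, Mir199a-1 was the same in both libraries, and the ranges of 3 of 3 neighbouring pairs did not overlap. An exact permutation test of 2 against 2 values cannot go below a two-sided p of 0.333, so that test cannot call the order at 0.05, and no other test of it was run. The order is of placed reads, since reads that match several places are counted at no gene. Where the reads lay in each precursor was not measured. Per precursor base the order was unchanged, at 85.0, 4.41, 0.869 and 0.125 CPM per base.

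Inside each library Mir214 had 89.8 counts for 1 of Mir199a-2 in replicate 1 (exact binomial interval 81.1 to 99.8) and 109 in replicate 2 (91.4 to 130). Both lie in exons of Dnm3os, and the ratio is of reads that could be placed at 1 gene. Inside the annotated arms, 6 of 6 windows of 20 bases were in Mir214 alone and 0 of 7 in Mir199a-2 alone. Fisher's exact test of the counts gave p = 0.0673 for a difference of this ratio between the libraries, 0.135 after Benjamini-Hochberg adjustment over the 4 ratios compared. Mir214 over Mir199b moved from 17.8 (17.0 to 18.7) to 21.2 (19.6 to 23.0), with an adjusted p of 0.000535 by the same exact test. Mir199b over Mir199a-2 was 5.04 (4.51 to 5.65) and 5.12 (4.23 to 6.23), adjusted p = 0.955 by the exact test, and Mir199a-2 over Mir199a-1 was 12.7 (8.71 to 19.3) and 9.14 (5.25 to 17.2), adjusted p = 0.489. These tests see read counting alone and compare 2 libraries. All 4 ratios are of placed reads, so they do not give the ratio of microRNA molecules made by the genes.

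The balance inside the Mir199 family was nearly the same in both pools. Mir199b held 82.4% of the family's counts in replicate 1 (exact Clopper-Pearson interval 80.7 to 83.9) and 82.2% in replicate 2 (79.3 to 84.8). Mir199a-2 held 16.3% (14.8 to 17.9) and 16.1% (13.6 to 18.8), and Mir199a-1 1.28% (0.861 to 1.84) and 1.76% (0.964 to 2.93). These are shares of reads that could be placed. Windows inside the shared arms name no single gene, whereas a window that begins 1 base before miR-199a-5p occurs in 1 precursor alone, in Mir199a-1 as in Mir199a-2. How many arm reads were placed was not measured, and the shares do not give the share of miR-199 molecules made by each gene.

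Together the 4 genes held 1.06% of assigned counts in replicate 1 (1.05 to 1.07) and 0.928% in replicate 2 (0.914 to 0.944), a mean of 0.994 ± 0.0920% (SD, n = 2). Mir214 made up 93.6% and 94.6% of this. The 3 Mir199 genes held 0.0675% (0.0648 to 0.0704) and 0.0503% (0.0469 to 0.0539) of assigned counts. The class of reads mapping to several places was far larger, with 2804637 and 1234115 reads for all microRNAs and other RNAs, or 1242 and 1548 reads for each count of a Mir199 gene. The files do not say which sequences it holds, so the amount of miR-199 in it was not measured.

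Counts on the strand opposite to the members were 0 and 0 at each of the 4 genes, which bounds only reads that could be placed at 1 gene and says nothing of opposite-strand reads in the shared stretches. Within 10 kb the only other counted gene apart from the pair on Dnm3os was Gm23363, a predicted microRNA gene 116 bases from Mir199b on the same strand, with 1 count in replicate 1 and 0 in replicate 2.

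Detection was set against copies over all counted genes. A copy here means a run of 20 or more bases that also occurs in the precursor of a different counted gene. At 10 counts in both libraries, 75 of 907 genes with a copy were detected (8.27%), against 272 of 987 without one (27.6%). This is a description of these annotations with no test. Both classes hold predicted genes with no counts, and the part of annotation was not separated from that of copies. All 3 Mir199 genes belong to the class with a copy, and all 3 were detected. Among its 75 detected genes Mir199b stood at place 23, Mir199a-2 at place 38 and Mir199a-1 at place 73. Mir214 stood at place 27 of the 272 detected genes without a copy. Of 34 counted genes whose every RefSeq mature sequence occurs in another precursor, 7 were detected (20.6%), all 3 Mir199 genes among them. Mir199b is in this class because RefSeq lists its 3p arm alone. In its 5p stretch 4 of 4 windows of 20 bases were its own. Where some but not every mature sequence occurs in another precursor, 33 of 49 were detected (67.3%), and where none does, 255 of 775 (32.9%). These last 3 classes rest on shared mature sequences and not on the run of 20 bases. Detection was thus not lower in every class that shares a mature sequence.

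**Figure D3:**
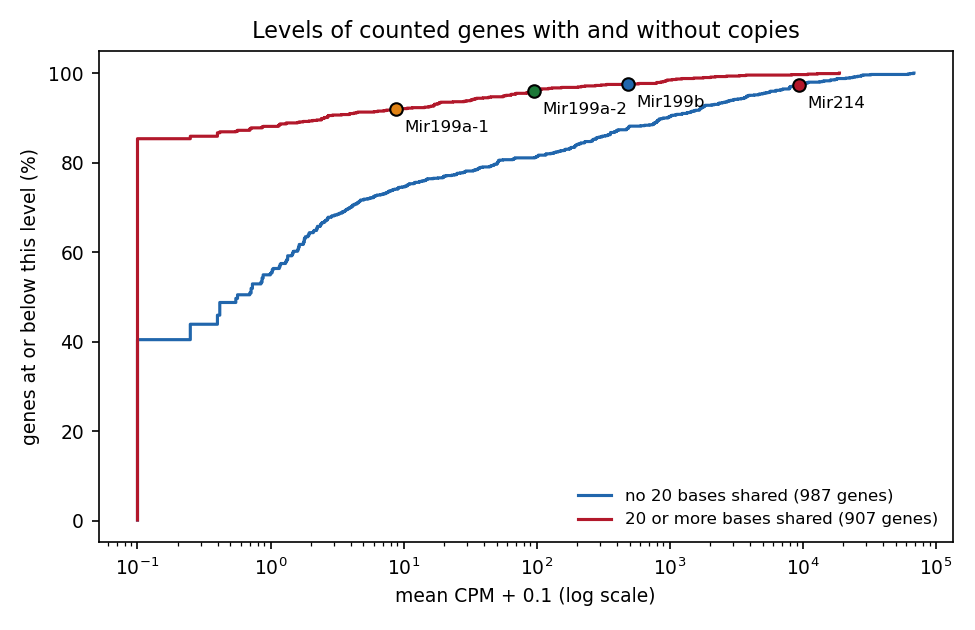
Share of counted genes (vertical axis, %) at or below each mean level (horizontal axis, mean CPM + 0.1, log scale), for genes whose precursor shares 20 or more bases with another counted gene (red line, 907 genes) and for the other 987 (blue line). The 3 Mir199 genes sit on the red line and Mir214 on the blue line, with Mir199a-1, Mir199a-2, Mir199b and Mir214 in rising order.

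Distance between genes of one primary RNA can be set beside other neighbours. Of 101 pairs of detected genes that neighbour each other within 10 kb on 1 strand, the median pair was 6.10-fold apart in mean CPM. Mir214 and Mir199a-2 were 97.8-fold apart, and 8 of the 101 pairs were further apart. In 28 pairs exactly 1 gene shares 20 bases with another counted gene, as here, and the median was 9.16-fold with 5 pairs further apart. Where neither gene has such a copy the median was 4.50-fold over 65 pairs, with 2 further apart. What part copies have in the gap between Mir214 and Mir199a-2 was not tested.

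Between the pools the measured ratios of all 4 members lay within the 2-fold threshold, with a wide interval for Mir199a-1. With trimmed mean of M values (TMM) scaling and a two-sided exact binomial test, adjusted over 454 genes with at least 10 summed counts, 0 of the 4 members were called at least 2-fold apart. Over all tested genes 7.27% were called, so 0 of 4 does not set the members apart from other genes. The log2 ratio of replicate 2 over replicate 1 was -0.11 for Mir214 (95% interval -0.14 to -0.08), -0.37 for Mir199b (-0.50 to -0.24), -0.38 for Mir199a-2 (-0.69 to -0.09) and 0.11 for Mir199a-1 (-0.95 to 1.06). Adjusted p-values of the exact binomial test with edgeR's TMM sizes were 3.63e-14, 4.55e-08, 0.02 and 0.938 in that order.

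Mir214, Mir199b and Mir199a-2 thus passed an adjusted p of 0.05 at any fold, all lower in replicate 2. Over all tested genes 49.1% passed at any fold and 23.1% passed with the lower value in replicate 2. At this depth small differences pass often, since the test knows no biological spread. Where edgeR's exact test was given a biological spread (coefficient of variation) of 0.2, the adjusted p-values of the members ran from 0.799 to 1, and 1 of the 454 genes was called. The interval of Mir199a-1 reaches about 2-fold in either direction, so its counts do not settle whether it differed by less than that.

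Genes of like abundance give the scale of these differences. Mir214 was 1.08-fold apart between the pools, and 28 of 37 other genes within 2-fold of its mean level were further apart. For Mir199b the fold was 1.29, and 28 of 63 such genes were further apart, with a median of 1.28-fold. Mir199a-2 was 1.31-fold apart beside a median of 1.37-fold for 57 genes. Mir199a-1 was 1.08-fold apart beside a median of 1.46-fold for 71.

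**Figure D4:**
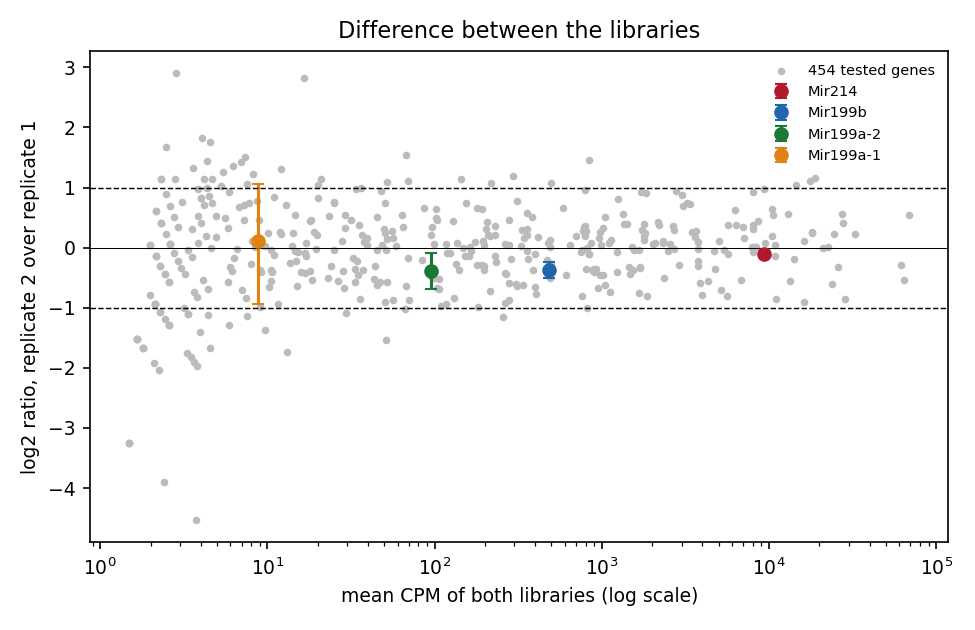
Log2 ratio of replicate 2 over replicate 1 (vertical axis, TMM scaled) against the mean CPM of both libraries (horizontal axis, log scale) for 454 tested genes in grey, with the 4 members in colour and their 95% exact intervals; dashed lines mark 2-fold. All 4 points lie between the dashed lines, and Mir199a-1 has the widest interval.

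The genes nearest to Mir214 in both libraries, by Euclidean distance of log2(CPM + 1) over the 2 libraries, were Mirlet7i at 0.139, Mir15a at 0.247, Mir92-1 at 0.261, Mir18 at 0.313 and Mir154 at 0.317. In the order of mean CPM, Mirlet7i stood directly above Mir214 with 9422 ± 93.0 CPM and Mir379 directly below with 9326 ± 4071 CPM (SD, n = 2). Their values overlap those of Mir214, so places 29 to 31 are not resolved. Mir199b stood between Mir493 at 488 ± 12.0 CPM and Mir106a at 477 ± 119 CPM. Mir199a-2 stood between Mir669e at 95.6 ± 6.69 CPM and Mir103-2 at 94.9 ± 24.4 CPM, and Mir199a-1 between Mir1927 at 8.94 ± 1.64 CPM and Gm24187 at 8.65 ± 2.94 CPM (SD, n = 2). None of these neighbours could be separated from the member by their spread.

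Other microRNAs known from mesenchyme and smooth muscle were present too. Of 5 counted genes of that list, which leaves the members out, 4 were detected, and together they held 1.54% and 2.80% of assigned counts in replicates 1 and 2. Mir143, a smooth muscle microRNA, had 11472 and 23596 CPM and was the 1 of 5 genes called, with a log2 ratio of 1.10 by the exact binomial test. Mir214 lay below Mir143 in each library and differed the other way. Mir140, known from cartilage, averaged 3644 ± 383 CPM, and Mir145a, cotranscribed with Mir143, averaged 477 ± 2.12 CPM (SD, n = 2), close to Mir199b. Mir218-2 at 33.2 ± 6.77 CPM and Mir218-1 at 7.01 ± 2.77 CPM have copies, as the Mir199 genes do. The median log2 ratio of the list was 0.07, beside 0.01 over all tested genes, of which 7.27% were called.

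Of 18 counted microRNAs known from liver fibrosis and stellate cells, again without the members, 16 were detected, and the 18 together held 10.7 ± 1.98% of assigned counts (SD, n = 2). Most of this was Mir335, with 69209 and 54513 CPM in replicates 1 and 2. Mir21a, which rises in many fibrotic tissues, averaged 25896 ± 4854 CPM (SD, n = 2). Both were above Mir214 in each library, while Mir30a, with 14420 and 7608 CPM, was above it in replicate 1 and below it in replicate 2. Mir29a, a repressor of collagen genes, averaged 781 ± 110 CPM, and Mir221, known from activated stellate cells, 340 ± 111 CPM (SD, n = 2), below Mir199b in both libraries. In this list 1 of 17 tested genes was called, beside 7.27% of all tested genes. It was Mir27a, with a log2 ratio of 1.08 by the exact binomial test, and the median of the list was -0.37. Mir214 averaged less than Mir21a and more than Mir29a, and its values overlap neither.

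Lists of microRNAs known from cell types of the liver were set beside the members. No reference tissue was measured, so these values do not check which tissue was taken. Hepatocyte genes held 3.64 ± 0.235% of assigned counts with 4 of 6 counted genes detected, the endothelial Mir126a 6.87 ± 1.60%, erythroid genes 0.984 ± 0.214% with 3 of 3 detected and leukocyte genes 0.927 ± 0.162% with 4 of 5 detected (SD, n = 2). The median log2 ratios of these lists were -0.37, 0.54, 0.45 and -0.62. Tested genes called were 1 of 6, 0 of 1, 1 of 3 and 0 of 4, beside 7.27% over all tested genes. The hepatocyte share was 3.48% in replicate 1 and 3.81% in replicate 2, although 4 of 6 tested genes of that list were lower in replicate 2. Mir122 had most of these counts, at 30679 and 34487 CPM, with a log2 ratio of 0.23. In RNA of whole livers the number of cells that hold the members' microRNAs and their amount per cell cannot be told apart. Which cells held the reads was not measured.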

How the data were processed

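For each library the authors deposited raw read counts for microRNA genes as whole numbers, without normalisation, on either strand, on the strand of the gene and on the opposite strand. Per the README deposited with each library, assembly mm10 and GENCODE M4 were used; the aligner and counter are not given in the sources used here, and the meaning of the columns was read from their values. Of all reads, 22.0% and 22.6% mapped to several places and 38.1% and 37.8% were unmapped in replicates 1 and 2; these and 2 further classes that name no gene stayed out of library sizes.

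CPM were computed from same-strand counts. Names and coordinates came from GENCODE M21 (1894 of 1973 identifiers matched), sequences from RefSeq, where 858 counted genes had a mature sequence. Libraries were compared across all genes with at least 10 summed counts by a two-sided exact binomial test against TMM sizes (edgeR 4.0.16, R 4.3.3), Benjamini-Hochberg adjusted and called at an adjusted p under 0.05 and 2-fold, with 0.5 added to counts for log2 ratios. TMM factors came from the same 454 genes, a choice made after seeing the data. A gene was detected at 10 counts in both libraries. Simulated counts were also run through these steps. Their outcome is not given here, so they do not show how the exact binomial test treats spread between pools. DESeq2 1.42.0 size factors were an alternative. Further steps ran in scipy 1.17.1, numpy 2.4.6, pandas 2.3.3 and matplotlib 3.10.9 under Python 3.11.15.

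Named genes were the members, counted genes within 10 kb, the gene above and below each member by mean CPM, the 5 detected genes nearest to Mir214, and list members given beside their list's counts. The members and the 6 lists were chosen with earlier results of these data known. The sources describe no molecular identifiers on the reads, and intervals cover counting error only. The labels call the libraries biological replicates; no p-value here measures the spread between animals.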

Additional observations from a re-analysis of the deposited data

How the results depend on the processing

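No paired analysis was possible because both libraries belong to 1 group. The order of the members and its 3 separate steps were the same under each of the 4 alternatives tried for it. Of these, 3 change only the total that all members of a library share, so they cannot change the order inside a library. The other divides by precursor length, 110 or 70 bases, which differ by less than the levels of neighbouring members. The alternatives are thus no test of the order. Counting without regard to strand moved Mir214 to 8486 CPM and Mir199a-1 to 7.95 CPM through the larger total, the members' own counts being equal. Per 1000000 reads of every class the levels were 2572, 133, 26.2 and 2.42 for Mir214, Mir199b, Mir199a-2 and Mir199a-1. Without the most abundant gene in the total, Mir199a-1 had 9.40 CPM. Leaving out either replicate gave 8782 to 9911 CPM for Mir214, 413 to 556 for Mir199b, 80.8 to 110 for Mir199a-2, 8.67 to 8.84 for Mir199a-1, and 0.928 to 1.06% for all 4 together. The members' log2 ratios kept their sign and their side of the 2-fold threshold under the 7 alternatives run for each. They ran from -0.19 to -0.11 for Mir214, -0.44 to -0.36 for Mir199b, -0.46 to -0.35 for Mir199a-2 and 0.04 to 0.30 for Mir199a-1. Of the 7, the 1.5-fold threshold cannot change a ratio, and other added counts and edgeR's exact test kept the same library sizes. For Mir214 only other library sizes moved the ratio away from -0.11. Genes called between the libraries numbered 33, against 15 from 100 summed counts (285 genes tested), 96 at 1.5-fold and 1 where a biological coefficient of variation of 0.2 was assumed. With TMM factors from all counted genes, an alternative chosen after seeing the data, 36 were called. With 18 or 22 shared bases in place of 20, the same number of members, 3, had a copy.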
